A study of Mus musculus with 9 samples.

Results

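The comparison described here sets hippocampus from ethanol-exposed mice that received an antibody to the cytokine IL-17A (CIE+IL17 Ab, 3 libraries) against hippocampus from ethanol-exposed mice given IgG (CIE+IgG, 3 libraries). These 6 of the 9 libraries of the series were chosen by their titles, with no measured value, and all genes of the deposited table were included. CIE stands for chronic intermittent ethanol, so every library compared comes from a mouse that received ethanol, and the sides differ in the antibody (coded ab or iso in the labels). The remaining 3 libraries come from mice kept in air and given IgG (Air+IgG). They enter the fit, where they share the estimate of the spread, and their levels are given as a reference. The design text gives 3 mice for each group, and the sources used here do not give strain, sex, age, antibody dose or time of dissection. Libraries were made from polyadenylated RNA with a stranded kit, and the libraries held 8701509 to 10374592 estimated counts in CIE+IgG and 7372658 to 11894628 in CIE+IL17 Ab. Of 14779 genes in the table, 14705 were tested.

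Interleukin 17A is a cytokine made mainly by T cells and other lymphocytes. It binds a receptor of the chains Il17ra and Il17rc, and the adaptor Traf3ip2 (Act1) passes the signal to NF-kB and to proteins that stabilise messenger RNA. In the brain its receptor has been described on glia, endothelium and some neurons. The hippocampus is built from the pyramidal neurons of the CA fields, the granule cells of the dentate gyrus, interneurons and glia. The thalamus and the habenula lie directly beneath it, and the choroid plexus and ependyma line the ventricle beside it.

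In ethanol-exposed mice given the antibody, the genes that rose included 14 of 17 listed markers of thalamus and habenula neurons. They also included 5 of 15 listed acetylcholine receptor genes and 7 of 59 listed potassium and HCN channel genes. The lists were chosen with earlier results of these data known, and the marker and acetylcholine receptor lists share Chrna3, Chrnb3 and Chrnb4. The genes that fell included 5 of 9 markers of CA1 pyramidal neurons and 7 of 38 immediate early genes. At an adjusted p under 0.05 in edgeR's quasi-likelihood test, 466 genes passed, which is 3.17% of those tested. Of these, 261 were higher with the antibody (1.77%) and 205 were lower (1.39%). Changes of over 2 times were more frequent among the rises, with 142 genes against 72 among the falls. The median log2 fold change over all 14705 genes was 0.015, and 47.7% of genes were below 0. Fold changes are given throughout as CIE+IL17 Ab minus CIE+IgG on the log2 scale, with the standard error (SE) of the fit, and levels are TMM-scaled CPM (counts relative to the library total), listed in the order of replicates 1 to 3.

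**Figure D1:**
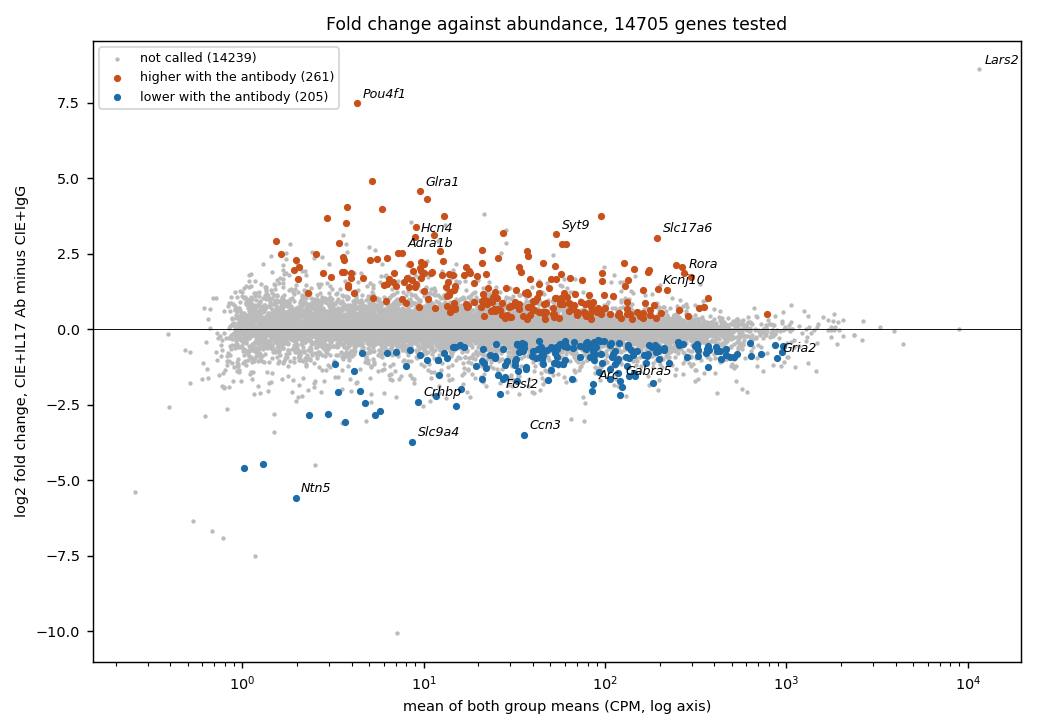
Log2 fold change (CIE+IL17 Ab minus CIE+IgG) of each of 14705 tested genes against the mean of both group means in CPM on a log axis. The 261 genes called higher reach up to Pou4f1 at 7.48, the 205 called lower reach down to Ntn5 at -5.57, and Lars2 at the far right was not called.

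The number of calls depended on which libraries were in the fit. With only the CIE+IL17 Ab and CIE+IgG libraries, 1 gene passed, Chrna3, with 2800 genes at an unadjusted p under 0.05. Without CIE+IgG replicate 1 no gene passed in edgeR's test, with 2114 at an unadjusted p under 0.05, so each single call below is lost in that fit. The fit gave 7 genes without CIE+IgG replicate 2, gave 19 when the second antibody library was left out, and gave 22, 223 and 18 without Air+IgG replicates 1, 2 and 3. Leaving out CIE+IgG replicate 3 gave 715, and leaving out CIE+IL17 Ab replicate 3 gave 1313. In the 6 libraries with label numbers 54 to 60, which hold 2 libraries of each group, 1 gene passed, Tcf7l2. The log2 fold changes moved far less than the calls: of the 96 called genes among the 128 named by the rule in the processing section, 1 (Slc9a4) had a log2 value that moved by over 1.5 times when any single library was left out. This limit applies to the log2 value, so the fold change itself can move more. The log2 fold change of Glra1 (4.58) ran from 3.72 to 6.64, and that of Chrnb3 (4.91) from 4.42 to 6.47. Among the 205 genes lower with the antibody, CIE+IL17 Ab replicate 3 was the antibody library nearest to the CIE+IgG mean for 177, and CIE+IgG replicate 3 was the CIE+IgG library nearest to the antibody mean for 165. Among the 261 higher genes these numbers were 171 and 169. For most called genes the third library of each group thus lay closest to the other group, and no called gene had overlapping groups.

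**Figure D2:**
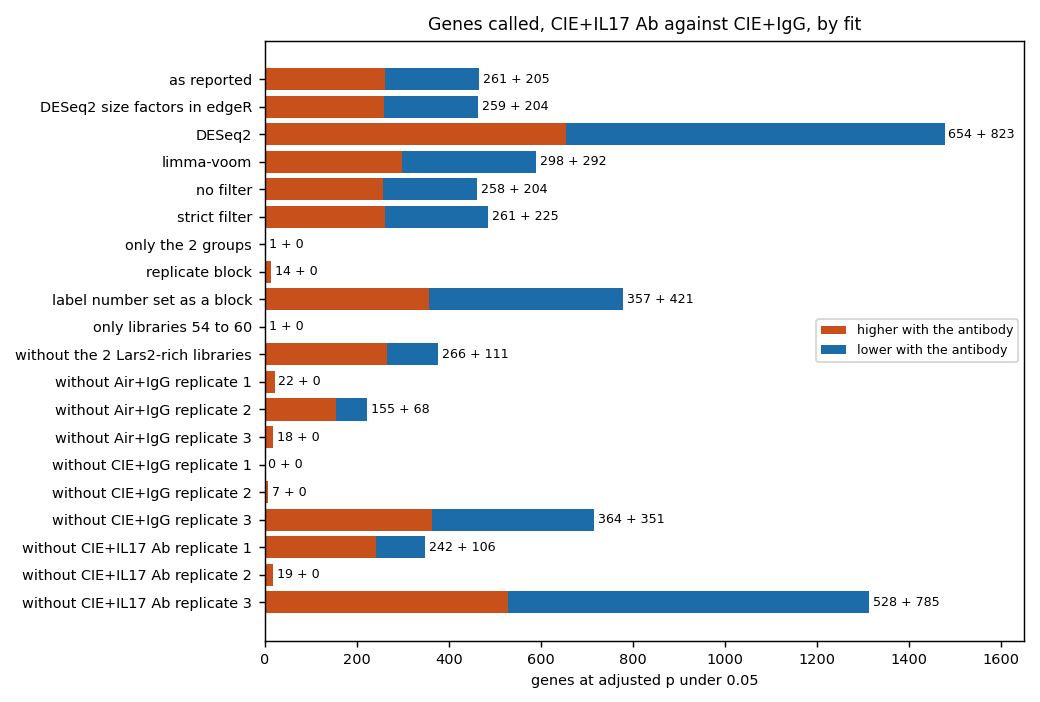
Number of genes at an adjusted p under 0.05, higher (orange) plus lower (blue) with the antibody, in the fit as reported and in 19 alternatives. The bars run from 0 genes without CIE+IgG replicate 1 to 1477 with DESeq2, and no fit with under 30 calls holds a fall.

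Markers of brain regions and cell types were checked against the label hippocampus. The summed levels of CA1, CA2 and CA3, dentate gyrus and interneuron markers were above 0 in all 9 libraries, and so was that of thalamus and habenula markers. Of 17 thalamus and habenula markers tested, 14 rose and 0 fell, and their summed level was 369, 240 and 627 CPM in CIE+IgG against 1307, 2601 and 1645.5 CPM in CIE+IL17 Ab. The groups did not overlap, and CIE+IgG replicate 3 held more than the other CIE+IgG libraries. Pou4f1, a homeodomain factor of habenular neurons, had 247 counts with the antibody and 1 count in CIE+IgG. It was at 0 in CIE+IgG replicates 1 and 2. The ratio of the summed counts was 248, with a 95% exact counting interval of 44.0 to 9820. That interval holds counting error only and leaves out the spread between libraries. Slc17a6, the vesicular glutamate transporter of thalamic and habenular neurons, had 28.0, 47.6 and 50.8 CPM in CIE+IgG and 483, 389.8 and 166 CPM with the antibody, a log2 fold change of 3.04 (SE 0.45). Gpr151, an orphan receptor of habenular axons, had 1.50, 1.76 and 2.05 CPM against 14.9, 35.5 and 21.6 CPM and passed in 16 of 19 alternative fits. The list score averages, over the members, how far log2 CPM in a library departs from that gene's mean over 9 libraries. It lay between -1.17 and -0.35 in CIE+IgG and between 1.52 and 2.62 with the antibody. Because this score separates the groups, changes that accompany it and changes that accompany the antibody cannot be told apart in these libraries, and this applies to every gene group below. In bulk tissue, fewer cells of a type and less RNA per cell cannot be told apart either.

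Markers of hippocampal neurons were called lower or not called. Of 9 CA1 pyramidal markers 5 fell and 0 rose, with a median log2 fold change of -1.65 and all 9 below 0. Mpped1, a metallophosphoesterase gene expressed in CA1, had 129, 187 and 90.8 CPM in CIE+IgG and 36.7, 17.2 and 45.5 CPM with the antibody. Fibcd1, a membrane protein gene used as a CA1 marker, had 128, 101 and 69.0 CPM against 33.1, 22.9 and 39.2 CPM. The summed CA1 level was 563, 719.5 and 487 CPM in CIE+IgG and 167, 174 and 303 CPM with the antibody, without overlap. Of 12 CA2 and CA3 markers 1 fell, Grik4, a kainate receptor subunit of CA3 mossy fibre synapses, from 81.5, 60.2 and 46.4 to 27.2, 22.9 and 34.7 CPM. The list median of -0.47 was -0.10 without CIE+IL17 Ab replicate 1 and -0.85 without replicate 3. None of 12 dentate granule cell markers passed, 9 were below 0, and the median of -0.80 was -0.50 without CIE+IL17 Ab replicate 1 and -1.22 without replicate 3. Trpc6, a cation channel, had the smallest p of that list, with 52.3, 63.2 and 32.2 CPM in CIE+IgG and 4.73, 11.9 and 33.1 CPM with the antibody, where replicate 3 overlapped the CIE+IgG range (adjusted p = 0.163). Of 15 interneuron markers 11 were below 0, and 5 were lower without overlap, where 13.2% of all genes were. In edgeR's test 6 had an unadjusted p under 0.05, all lower, where 22.3% of all genes did in either direction, and 1 passed. This was Sst, the somatostatin precursor of dendrite-targeting interneurons, with 83.2, 92.1 and 66.8 CPM in CIE+IgG and 43.6, 23.3 and 44.0 CPM with the antibody, a log2 fold change of -1.13 (SE 0.24, adjusted p = 0.0461).

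Lists of other neighbouring tissues varied between single libraries. None of 13 striatal, 13 choroid plexus or 9 ependymal markers passed. The striatal score was 2.29 in CIE+IgG replicate 3 and 1.72 in CIE+IL17 Ab replicate 3, and at most 0.082 in the other 7 libraries. The choroid plexus score was -3.17 in CIE+IL17 Ab replicate 1 and between 0.23 and 1.40 in the other 5 libraries compared. Its summed level was 473 CPM there against 4676 to 10460 CPM. The libraries of a group thus differed among themselves in these markers. CIE+IL17 Ab replicate 1 also held 495057 counts of Lars2, a mitochondrial leucyl-tRNA synthetase, where the other 5 libraries compared held between 301 and 1114. Without this library and Air+IgG replicate 2, which held 593544, 377 genes passed, and 236 of them were among the 466.

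**Figure D3:**
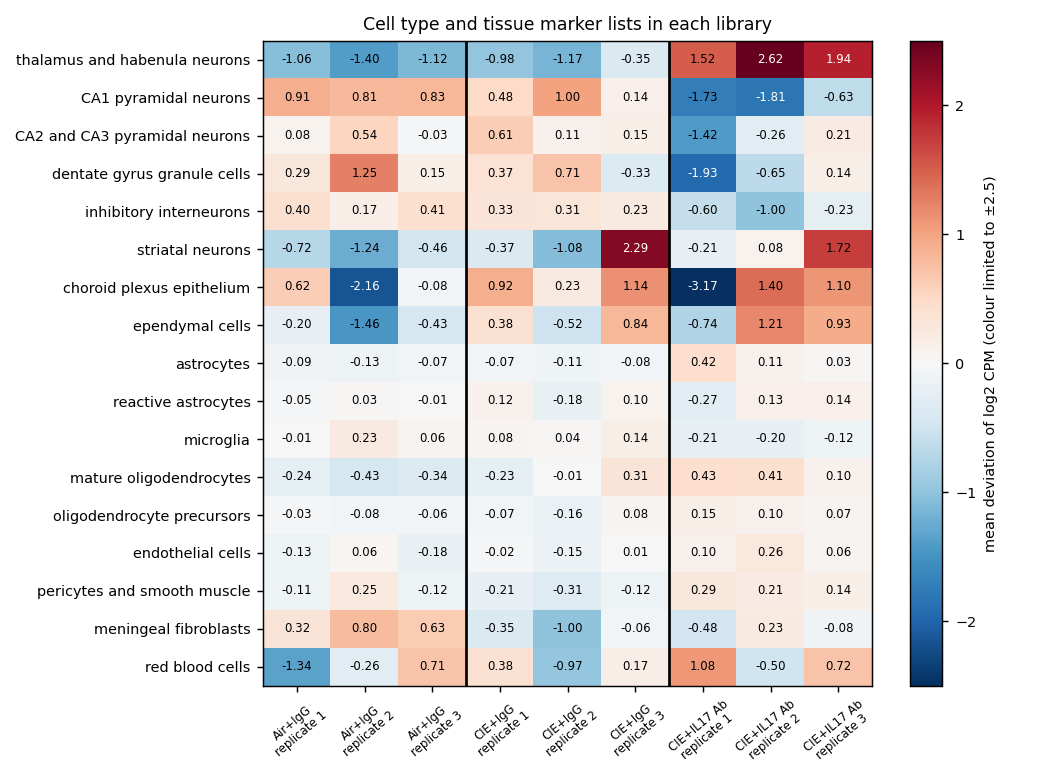
Score of 17 marker lists (rows) in the 9 libraries (columns), averaging over the members how far log2 CPM departs from each gene's mean over all libraries. The thalamus and habenula row is positive in the 3 CIE+IL17 Ab libraries and negative in the other 6, the CA1 row is the reverse, and the striatal and choroid plexus rows follow single libraries.

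The pathway that the antibody addresses showed no called gene in edgeR's test, DESeq2 or limma-voom. In edgeR's test 4 of the 23 genes had an unadjusted p under 0.05, where 22.3% of all genes did. All 4 were lower with the antibody. Of 23 tested genes of the interleukin 17 receptor family and its signalling chain, 0 rose and 0 fell, where 3.17% of all genes were called. In this list 11 were above 0 and 12 below. Without overlap, 3 were higher and 6 lower, where 12.7% and 13.2% of all genes were. The median of -0.03 lay between -0.065 and 0.036 with any 1 library left out. Il17ra, the signalling receptor chain, had 9.34, 11.4 and 9.04 CPM in CIE+IgG and 8.20, 10.1 and 10.3 CPM with the antibody, with overlapping libraries and a log2 fold change of -0.047 (SE 0.16, adjusted p = 0.902). Il17rc, the chain that pairs with it, had 5.37, 3.39 and 4.38 CPM and 4.17, 4.85 and 4.85 CPM (adjusted p = 0.891). Traf3ip2, the receptor's adaptor, had 14.0, 9.95 and 15.5 CPM and 13.8, 14.1 and 14.4 CPM (adjusted p = 0.779). For these genes the differences were smaller than their standard errors. The ligands Il17a and Il17f are not in the table and were not analysed here. Tnfaip3, a deubiquitinase that dampens NF-kB and interleukin 17 signalling, had the smallest p of the list, with 7.52, 9.25 and 5.69 CPM against 4.45, 2.90 and 4.85 CPM. Its groups did not overlap, and it did not pass (log2 fold change -0.89, SE 0.27, adjusted p = 0.101).

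Of 22 genes listed as interleukin 17 targets, 8 were tested and 0 passed in edgeR's test, while DESeq2 and limma-voom each called 1, Ptgs2. In edgeR's test 2 had an unadjusted p under 0.05, where 22.3% of all genes did. Ptgs2, the inducible cyclooxygenase, had 35.1, 29.0 and 19.9 CPM in CIE+IgG and 1.81, 3.37 and 14.6 CPM with the antibody, a log2 fold change of -2.07 with a wide SE of 0.62 (adjusted p = 0.101). In forebrain neurons this gene is also induced by activity, and it stands in the list of immediate early genes as well. Nfkbiz, an atypical NF-kB inhibitor protein and a classical target, had 12.0, 11.4 and 9.97 CPM and 4.73, 5.79 and 10.2 CPM, where replicate 3 of the antibody group reached the CIE+IgG range (adjusted p = 0.161). The list median of -0.41 was -0.15 without CIE+IgG replicate 2.

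Other immune lists held few calls. None of 22 cytokine and receptor genes passed in edgeR's test or limma-voom, and 2 did in DESeq2. In edgeR's test 4 had an unadjusted p under 0.05, where 22.3% of all genes did. Il6st, the shared signalling chain of the interleukin 6 family, had the smallest p, with 126, 125 and 147 CPM against 187, 167 and 157 CPM (log2 fold change 0.36, adjusted p = 0.0811). Of 25 genes of MHC class I and interferon signalling, 1 fell, Ifngr2, a chain of the interferon gamma receptor, from 57.2, 49.4 and 41.5 to 30.3, 24.3 and 36.2 CPM. None of 15 complement genes and none of 6 Fc receptor genes passed, with 2 complement genes called by DESeq2, and Fcgr3, a receptor for IgG on microglia, had 6.01, 7.96 and 7.83 CPM and 6.26, 5.87 and 6.33 CPM. Over the cytokine, interferon, complement and Fc receptor lists, with 22, 25, 15 and 6 genes tested, 1 gene was called, where 3.17% of all genes were. These lists do not hold every immune gene. Il15ra and Tnfrsf11a, cytokine receptor genes outside them, passed in edgeR's test and were chosen after their values were seen.

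Among glial genes the clearest differences were in astrocyte membrane proteins. Kcnj10 encodes Kir4.1, the potassium channel by which astrocytes buffer potassium. It had 100.1, 99.8 and 87.3 CPM in Air+IgG, 101, 112 and 121 CPM in CIE+IgG and 289, 316 and 229 CPM with the antibody. The 3 antibody libraries all lay at over 2 times the level of the CIE+IgG mean, and the log2 fold change was 1.32 (SE 0.13, adjusted p = 0.0118). It passed in 15 of the 19 alternative fits. Slc6a11, the GABA transporter GAT-3 of astrocyte processes, had 135, 111 and 163 CPM against 709, 402 and 267 CPM. Its antibody libraries spread widely, with replicate 1 highest (log2 fold change 1.75, SE 0.33, adjusted p = 0.0375). Atp1b2, a sodium pump subunit of glia, had 265, 281 and 243 CPM and 522, 417 and 386 CPM, and the gap junction gene Gja1 had 139, 125 and 128 CPM and 202, 159.6 and 178 CPM. Both rose, by 0.75 and 0.46 on the log2 scale. Of the 14 astrocyte markers, 2 rose (Kcnj10 and Gja1) and 0 fell, and 12 were above 0. Without overlap, 4 were higher and 2 lower, where 12.7% and 13.2% of all genes were. Those 2 lower markers were the ones below 0, and the lowest log2 fold change was -0.51. The summed level overlapped between the groups, at 9242, 9946 and 8899 CPM in CIE+IgG and 9436, 7413 and 8461 CPM with the antibody. The list median of 0.34 was 0.16 without CIE+IL17 Ab replicate 1.

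Of 13 reactive astrocyte genes tested, 0 rose and 1 fell, Serpina3n, a serine protease inhibitor, from 49.2, 42.1 and 37.1 to 21.1, 16.7 and 24.9 CPM (log2 fold change -1.04, SE 0.17). Gfap, the astrocyte filament protein, had 362, 368 and 336 CPM in CIE+IgG and 298, 213 and 241 CPM with the antibody. These libraries did not overlap, and the gene did not pass (log2 fold change -0.51, adjusted p = 0.0792). The list had no common direction, with 7 of the 13 genes above 0 and 6 below. Its median of 0.10 was -0.04 without CIE+IgG replicate 2. Without overlap, 1 gene was higher and 2 were lower, where 12.7% and 13.2% of all genes were.

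Of 16 microglial markers 2 fell and 0 rose, and 6 had an unadjusted p under 0.05 in edgeR's test, where 22.3% of all genes did. Of the list 15 were below 0, and in 10 every antibody library was below every CIE+IgG library, where 13.2% of all genes were. Csf1r, the receptor that microglia need to survive, had 107, 106 and 106 CPM in CIE+IgG and 77.8, 79.4 and 85.8 CPM with the antibody. The CIE+IgG libraries were nearly identical, and the log2 fold change was -0.39 (SE 0.079, adjusted p = 0.0419). P2ry12, the purinergic receptor of homeostatic microglia, fell from 41.7, 38.7 and 36.3 to 29.1, 26.9 and 26.5 CPM. Aif1, which encodes the microglial protein Iba1, had 2.69, 2.22 and 3.08 CPM and 2.78, 3.37 and 2.95 CPM and did not pass (adjusted p = 0.702). The list median was -0.28, and between -0.33 and -0.24 with any 1 library left out.

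In the oligodendrocyte lineage, 0 of 16 markers of mature cells and 0 of 10 of precursors passed in edgeR's test. In that order 3 and 4 had an unadjusted p under 0.05, where 22.3% of all genes did, and DESeq2 called 0 and 1. All 16 mature markers were above 0, with a median of 0.28, which became 0.15 when CIE+IgG replicate 1 was left out and 0.44 when replicate 3 was. Gjb1, a connexin of myelinating cells, had 9.88, 11.1 and 11.8 CPM against 19.3, 15.6 and 12.7 CPM (adjusted p = 0.109). In the vasculature, 0 of 14 endothelial markers passed (1 in DESeq2), while 12 were above 0 and 6 were higher without overlap. Of 11 pericyte and smooth muscle markers 1 rose. This was Notch3, the receptor of mural cells, with 27.0, 19.1 and 28.0 CPM in CIE+IgG and 48.0, 41.2 and 36.6 CPM with the antibody (log2 fold change 0.76, SE 0.17). All 11 markers of that list were above 0, and 7 had no overlap between the groups, where 12.7% of all genes were higher without overlap. Collagens showed 3 rises and 0 falls among 42 genes. Col9a2, Col16a1 and Col15a1, which encode matrix collagens that are not of the large fibrils, rose by 1.52, 1.37 and 1.24 on the log2 scale. Col16a1 had 13.3, 9.60 and 14.8 CPM against 38.8, 36.5 and 22.7 CPM. None of 14 meningeal fibroblast and 5 red blood cell markers passed. Of these, 12 and 5 were above 0, and 5 and 1 were higher without overlap.

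Ionotropic glutamate receptors, which carry fast excitation, changed in both directions. Gria2, the AMPA receptor subunit that makes the channel impermeable to calcium, had 1156, 1406 and 1209 CPM in Air+IgG, 1221, 1188 and 1089.8 CPM in CIE+IgG and 518, 528 and 785 CPM with the antibody. Every antibody library was lower than every other library, with replicate 3 the highest of them, and the log2 fold change was -0.93 (SE 0.17, adjusted p = 0.0326). Of 20 AMPA and kainate subunits and auxiliary proteins, 2 fell (Gria2 and Grik4) and 2 rose. The rises were the auxiliary proteins Cacng2 (stargazin), from 33.5, 41.2 and 34.3 to 56.7, 56.3 and 49.4 CPM, and Shisa9, from 18.2, 22.9 and 20.6 to 35.6, 29.6 and 31.2 CPM. A further 8 members were lower without overlap and were not called, where 13.2% of all genes were lower without overlap, and the list median was -0.52.

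Of 6 NMDA receptor subunits 3 were above 0 and 3 below, with a median of -0.13. Without overlap, 2 were higher and 2 lower, where 12.7% and 13.2% of all genes were. Their summed level overlapped, at 2002, 2177 and 1448 CPM in CIE+IgG and 977.5, 1082 and 1463 CPM with the antibody. In edgeR's test 1 subunit rose and 0 fell. Grin2d, a subunit with slow kinetics that is prominent in diencephalon, had 6.55, 4.56 and 10.9 CPM in CIE+IgG and 23.6, 37.6 and 23.8 CPM with the antibody. CIE+IgG replicate 3 was above the other CIE+IgG libraries and below the antibody libraries (log2 fold change 1.94, SE 0.32, adjusted p = 0.0264). Among 7 metabotropic receptors, Grm5, a group I receptor, fell from 568, 547 and 601 to 321, 309.6 and 457 CPM, and no other passed. Of these receptors 4 were above 0 and 3 below, with a median of 0.043. Without overlap, 3 were higher and 1 lower, where 12.7% and 13.2% of all genes were. Homer1, which ties group I metabotropic receptors to the postsynaptic density, fell, with 165, 179.7 and 189.8 CPM against 76.6, 77.6 and 121 CPM. Dlg2, the membrane-associated guanylate kinase PSD-93, fell as well, with 456, 450.2 and 439 CPM against 271, 231 and 353 CPM. Of 35 postsynaptic scaffold and adhesion genes 3 fell and 2 rose, 12 were above 0, with a median of -0.31, which was -0.49 without CIE+IL17 Ab replicate 3. The third fall was Lgi1, a secreted synaptic protein, by 0.71 on the log2 scale, chosen after its values were seen. Cbln2, a secreted synapse organiser, was among the rises, with 9.34, 14.5 and 7.64 CPM against 96.5, 66.7 and 26.6 CPM. Its antibody libraries ranged widely, with replicate 1 highest. The other rise was Nrxn2, a presynaptic adhesion protein, by 0.39 on the log2 scale.

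**Figure D4:**
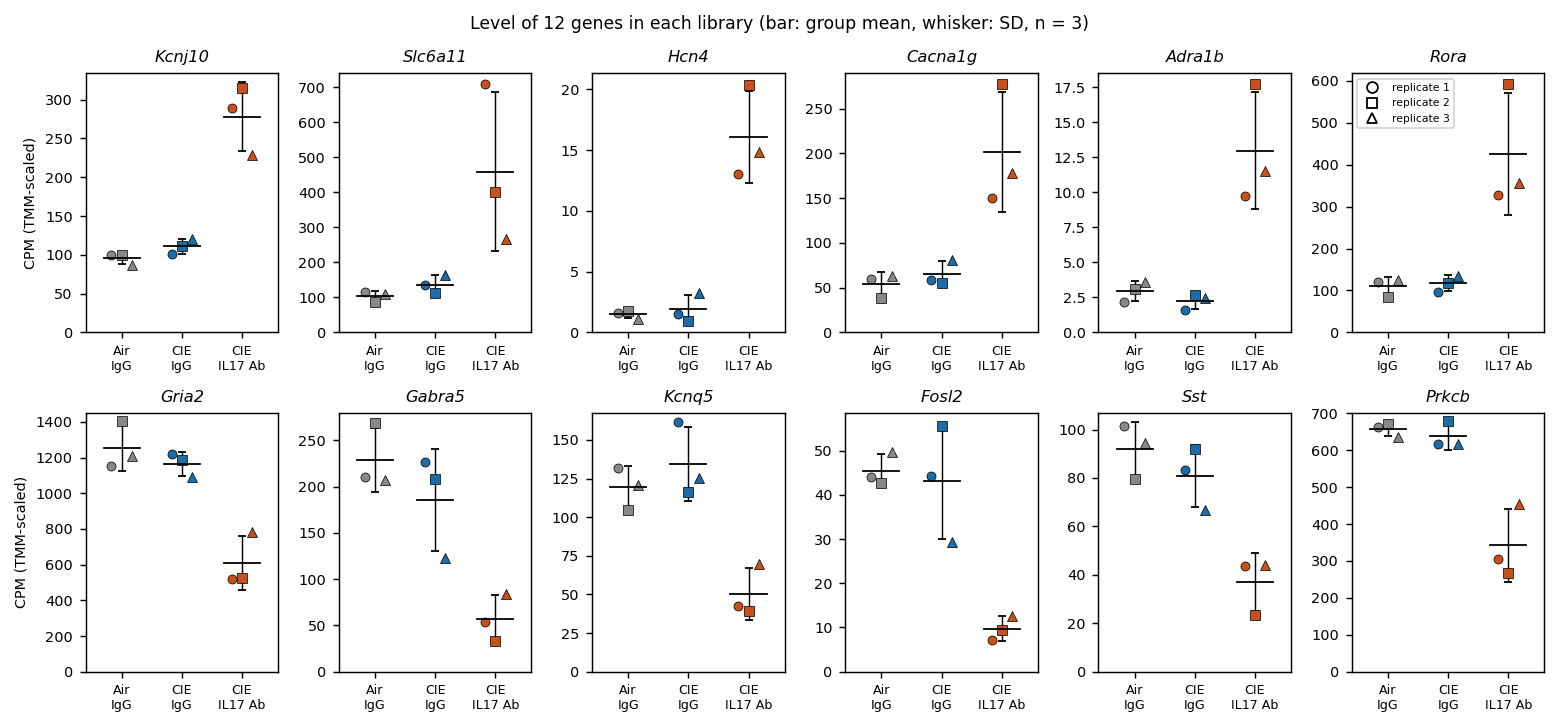
Level in CPM of 12 genes in each of the 9 libraries (symbols: replicates 1 to 3, horizontal bar: group mean, whisker: SD, n = 3), with each vertical axis starting at 0. In the upper row every CIE+IL17 Ab library is above all others and in the lower row every one is below all others.

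Inhibitory receptors differed by subunit. Gabra5, the GABA-A alpha subunit of extrasynaptic receptors on hippocampal pyramidal cells, had 209.9, 268 and 207 CPM in Air+IgG, 226, 208 and 123 CPM in CIE+IgG and 53.8, 33.2 and 84.3 CPM with the antibody. The groups did not overlap although CIE+IgG replicate 3 was low, and the log2 fold change was -1.70 (SE 0.34, adjusted p = 0.0434). Of 16 GABA receptor subunits 2 fell and 0 rose, and 11 were above 0, and the list median of 0.22 was 0.075 without CIE+IgG replicate 2. Glycine receptor and transporter genes gave 2 rises among 6. Slc6a9, the glycine transporter GlyT1, had 36.6, 40.4 and 42.5 CPM against 113, 78.0 and 60.4 CPM (log2 fold change 1.07, SE 0.20). Glra1, a receptor alpha subunit typical of brainstem and spinal cord, had 0.322, 0 and 1.77 CPM against 35.2, 14.0 and 5.80 CPM, with antibody replicate 1 highest.

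Transporters of amino acid transmitters showed 4 rises and 0 falls among 13 genes. The rises were Slc17a6, Slc6a11 and Slc6a9, described above, and Slc38a1, a glutamine transporter of neurons, which had 254, 246 and 255 CPM in CIE+IgG and 495, 376 and 348 CPM with the antibody (log2 fold change 0.69, SE 0.13). Uncalled members went lower too: 5 genes were below 0, down to -2.12. Groups lay apart for 4 higher and 4 lower genes. The list median, 0.081, turned to -0.10 once the first antibody library was dropped. The level summed over the 13 genes was 7864, 8415 and 7287 CPM in CIE+IgG. With the antibody it was lower in every library, at 6725, 5774 and 6778 CPM.

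The 15 acetylcholine receptor genes tested were split, with 7 above 0, 8 below and a median of -0.069. Without overlap, 6 were higher and 5 lower, where 12.7% and 13.2% of all genes were. Among the 15 genes, 5 rose and 0 fell in edgeR's test, and all 5 were nicotinic. Chrna4 and Chrnb2 encode the subunits of the main high-affinity nicotinic receptor of the brain. Chrna4 had 19.2, 39.1 and 32.2 CPM against 85.6, 115 and 92.4 CPM, a log2 fold change of 1.70 (SE 0.26, adjusted p = 0.0242). Chrnb2 had 80.9, 76.5 and 77.4 CPM against 113, 120.1 and 100.4 CPM and rose by 0.51. Chrna3, a subunit concentrated in the medial habenula, had 0.644, 1.05 and 1.21 CPM against 20.6, 21.8 and 16.9 CPM. It passed in 16 of 19 alternative fits. The remaining rises were Chrnb3 and Chrnb4 (the latter chosen after its values were seen), both also habenular, with log2 fold changes of 4.91 and 2.54. Chrna3, Chrnb3 and Chrnb4 are also members of the thalamus and habenula list, so the counts of the lists share these genes.

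Of 28 monoamine receptors 1 passed. Adra1b, an alpha-1 adrenergic receptor that is strong in thalamus, had 2.17, 3.09 and 3.60 CPM in Air+IgG, 1.61, 2.69 and 2.42 CPM in CIE+IgG and 9.73, 17.7 and 11.5 CPM with the antibody. All antibody libraries were above all others (log2 fold change 2.54, SE 0.31, adjusted p = 0.0177), and the gene passed in 15 of 19 alternative fits. Among 49 neuropeptide and receptor genes 4 rose and 4 fell. Tac2, the precursor of neurokinin B, had 2.04, 1.29 and 1.40 CPM against 10.1, 22.9 and 16.5 CPM. Oprm1, the mu opioid receptor, had 7.41, 5.15 and 10.1 CPM against 37.4, 43.4 and 23.1 CPM, and Vipr2, a receptor for vasoactive intestinal peptide, had 0.752, 0.468 and 0.559 CPM against 3.20, 11.6 and 5.80 CPM. These groups did not overlap. Crhbp, the binding protein of corticotropin-releasing hormone, fell from 13.7, 22.8 and 10.5 to 1.95, 2.27 and 4.64 CPM. Its CIE+IgG libraries ranged more than the Air+IgG libraries, which had 24.3, 22.2 and 21.7 CPM. Besides Sst, described above, the falls included 2 somatostatin receptors, Sstr3 and Sstr4, with log2 fold changes of -1.05 and -1.64, and the fourth rise was Adcyap1, the precursor of the peptide PACAP, with 2.15. These 3 genes were chosen after their values were seen.

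Ion channels gave mostly rises among the calls. Of 59 listed potassium and HCN channel genes 7 rose and 1 fell, while 34 were below 0. The list does not hold Kcnj10, which rose as described above, or Kcnj12 and Kcng4, which also passed (both chosen after their values were seen). The median of -0.18 lay between -0.28 and 0.0090 with any 1 library left out. Hcn4, the slowest of the pacemaker channels activated by hyperpolarisation, had 1.50, 0.936 and 3.26 CPM against 13.1, 20.3 and 14.9 CPM (log2 fold change 3.05, SE 0.39, adjusted p = 0.0177). Hcn3 rose from 7.20, 6.32 and 7.64 to 14.7, 14.2 and 13.3 CPM, and its replicates lay close together in both groups. Kcnc2, a Kv3 channel of fast-spiking neurons, rose from 145, 145 and 116 to 235, 274 and 207 CPM. The fall was Kcnq5, a subunit of the M-current, with 161, 116 and 126 CPM in CIE+IgG and 42.3, 39.4 and 69.6 CPM with the antibody (log2 fold change -1.41, SE 0.23, adjusted p = 0.0258). Kcna6, Kcnip1, Kcnk3 and Hcn2 (chosen after their values were seen) completed the rises of the list, with log2 fold changes of 0.56, 1.20, 1.11 and 0.83. Of 29 calcium and sodium channel genes 1 rose and 0 fell. Cacna1g, the T-type calcium channel Cav3.1 of thalamic relay neurons, had 58.3, 54.7 and 81.4 CPM against 149.8, 277 and 178 CPM, and antibody replicate 2 was highest (log2 fold change 1.64, SE 0.28).

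Presynaptic genes were divided as well. Of 45 genes of synaptic vesicle release 2 rose and 3 fell. Rims3, an active zone protein, rose from 69.7, 100.1 and 108 to 441, 499 and 267 CPM, and Syt9, a synaptotagmin, rose from 9.02, 5.27 and 18.0 to 66.7, 132 and 92.1 CPM. Sv2b, a synaptic vesicle glycoprotein, fell from 589, 532 and 431 to 147, 218 and 289.5 CPM and Syt16 fell from 53.3, 66.4 and 44.4 to 25.4, 26.8 and 33.3 CPM. The fold changes of the rises (2.12 and 3.15) were larger in size than those of the falls (-1.24 and -0.94). The third fall was Syn2, a synapsin, with -0.54, chosen after its values were seen.

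Axon guidance genes, 57 in number, held 2 rises and 3 falls. Ntng1, a netrin-G expressed by thalamic axons, had 37.3, 41.1 and 47.1 CPM against 89.5, 230.3 and 132 CPM. Nrp1, a semaphorin and VEGF coreceptor, fell from 217, 187 and 148 to 66.9, 68.2 and 106 CPM, and Sema3e, a semaphorin, fell from 85.8, 77.6 and 63.9 to 31.1, 26.3 and 44.4 CPM. Ntn5 had 106 counts in CIE+IgG and 2 with the antibody, a ratio of 52.9 with a 95% exact counting interval of 14.3 to 442. This interval too leaves out the spread between libraries. The other rise was Epha8, an ephrin receptor, with a log2 fold change of 2.27, chosen after its values were seen. In the Wnt list of 39 genes, 5 rose and 2 fell. The list does not hold every Wnt gene: the ligand Wnt9b, which rose, and Frzb, which fell, are outside it and are described below. Wnt3 and Wif1, also outside it and chosen after their values were seen, passed too. The transcription factors Tcf7l2 and Lef1, which act at the end of the pathway and also mark thalamic neurons, rose by 3.74 and 2.42. Lef1 had 11.6, 8.66 and 15.0 CPM against 47.8, 87.4 and 54.3 CPM, and Tcf7l2 had 5.58, 6.55 and 27.0 CPM against 176, 231 and 126 CPM, with CIE+IgG replicate 3 at over 4 times the other CIE+IgG libraries. The receptor Fzd1 rose from 15.3, 12.8 and 16.3 to 45.3, 33.0 and 25.9 CPM. Fzd10 rose by 2.86, and the ligand-like activator Rspo2 fell by 2.84 on the log2 scale. The other rise, Axin2, and the other fall, Wnt7b, had log2 fold changes of 0.70 and -0.85 and were chosen after their values were seen.

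**Figure D5:**
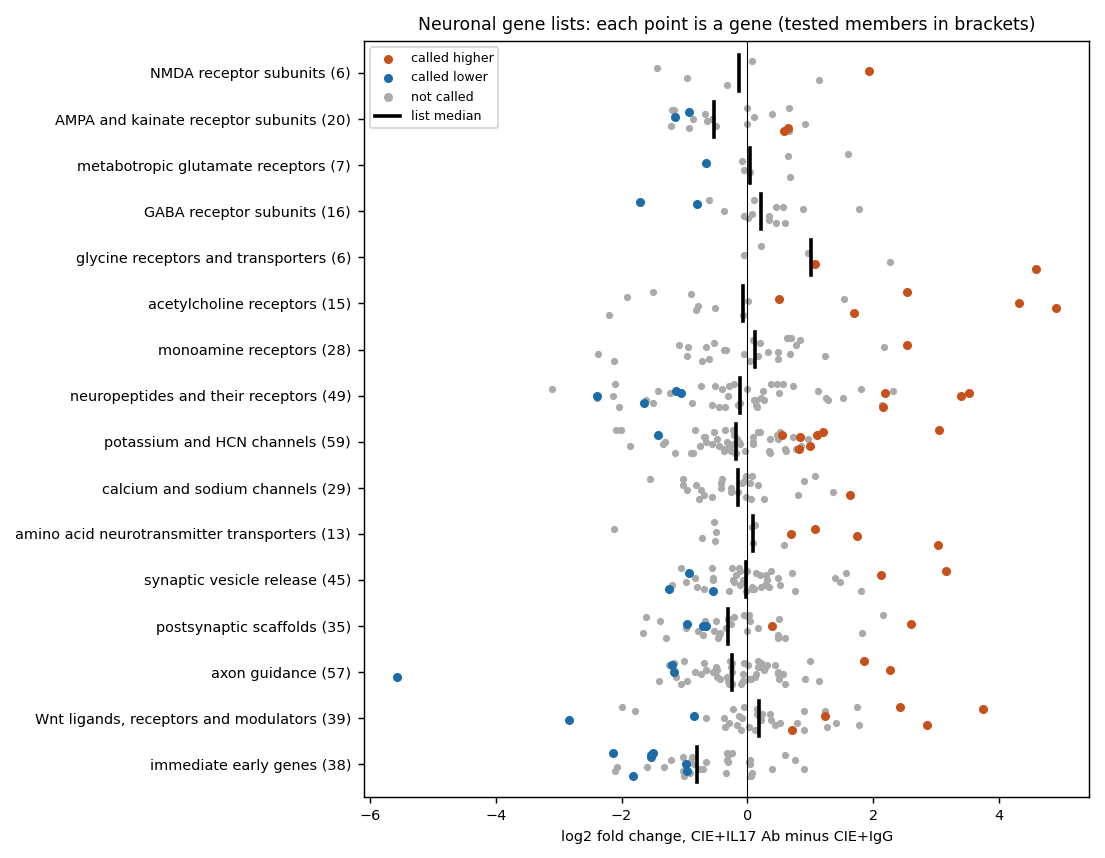
Log2 fold change (CIE+IL17 Ab minus CIE+IgG) of each tested member of 16 neuronal gene lists, 1 point per gene, with called genes in colour and a bar at the list median. Called rises extend furthest to the right in the acetylcholine receptor, glycine and Wnt rows, and in the immediate early gene row all 7 called genes are falls and the median is -0.80.

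Immediate early genes are switched on in neurons within minutes of activity. Of 38 tested, 7 fell and 0 rose, 28 were below 0, and the list median was -0.80, between -0.99 and -0.58 with any 1 library left out. In 20 of them every antibody library was below every CIE+IgG library, where 13.2% of all genes were. Fosl2, an AP-1 transcription factor subunit, had 44.1, 42.6 and 49.8 CPM in Air+IgG, 44.4, 55.5 and 29.4 CPM in CIE+IgG and 7.09, 9.47 and 12.7 CPM with the antibody (log2 fold change -2.13, SE 0.26, adjusted p = 0.0177). Arc, whose protein acts in removing AMPA receptors from synapses, had 106, 183 and 111 CPM against 29.9, 28.2 and 55.8 CPM (log2 fold change -1.81, SE 0.38). Its CIE+IgG libraries spread more than the difference between the lowest of them and the highest antibody library. The dual-specificity phosphatases Dusp5 and Dusp6 fell from 19.7, 19.9 and 14.9 to 3.61, 5.48 and 9.60 CPM and from 62.8, 65.0 and 50.7 to 22.0, 32.2 and 35.7 CPM. The nuclear receptor Nr4a1 and the kinase Plk2, chosen after their values were seen, fell by 1.50 and 1.54 on the log2 scale. Other members did not pass. Fos itself had 10.3, 17.3 and 16.5 CPM and 17.1, 10.4 and 8.12 CPM with overlapping libraries (adjusted p = 0.559). Bdnf, the neurotrophin, had 46.7, 56.3 and 25.3 CPM and 21.5, 13.7 and 20.4 CPM, without overlap, and did not pass (adjusted p = 0.0933). Among 10 tested neurotrophin genes and receptors 1 passed, the sorting receptor Sort1, which fell from 899.8, 946 and 654 to 429, 379 and 543 CPM.

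Activity reaches many of these genes through the factor CREB, which binds the cyclic AMP response element TGACGTCA or its half-site TGACG. The 250 bases before the start of each gene were searched on both strands in the RefSeq promoter table (GRCm38.p6), which held 6 of the 7 genes that fell. The half-site, which every full site contains, was present in 4 of the 6 (Homer1, Dusp5, Plk2 and Nr4a1) and in 19.8% of all 27025 genes of the table. The full site was present in 1 of the 6 (Plk2) and in 1.77% of all genes. Over the whole immediate early gene list, called or not, 28 genes had a window, of which 19 held the half-site, among them Fos and Bdnf, which were not called, and 5 held the full site. The AP-1 letters TGAGTCA were in 0 of the 6 and in 5.16% of all genes. The motifs were picked with the fall of these genes known, and a match is a description of the letters. The windows with a match are shown because they are the promoters of genes that fell together, 5′ to 3′ on the strand of the gene (all on the plus strand), with capitals marking each half-site in either orientation.
Plk2, chr13:110394794-110395043: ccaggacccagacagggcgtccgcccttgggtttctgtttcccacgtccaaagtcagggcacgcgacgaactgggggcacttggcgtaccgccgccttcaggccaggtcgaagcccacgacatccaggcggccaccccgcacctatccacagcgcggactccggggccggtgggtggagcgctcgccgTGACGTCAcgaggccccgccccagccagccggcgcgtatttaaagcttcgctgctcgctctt
Homer1, chr13:93303507-93303756: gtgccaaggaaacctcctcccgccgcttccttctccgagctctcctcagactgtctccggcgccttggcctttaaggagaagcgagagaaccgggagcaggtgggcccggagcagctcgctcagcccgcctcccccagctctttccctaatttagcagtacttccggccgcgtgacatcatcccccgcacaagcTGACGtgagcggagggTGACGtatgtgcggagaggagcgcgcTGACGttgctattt
Dusp5, chr19:53528895-53529144: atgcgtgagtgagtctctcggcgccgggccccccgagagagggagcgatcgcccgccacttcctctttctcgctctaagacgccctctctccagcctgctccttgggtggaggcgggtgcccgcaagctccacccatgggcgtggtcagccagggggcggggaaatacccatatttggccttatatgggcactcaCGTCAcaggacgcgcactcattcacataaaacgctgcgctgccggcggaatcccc
Nr4a1, chr15:101266596-101266845: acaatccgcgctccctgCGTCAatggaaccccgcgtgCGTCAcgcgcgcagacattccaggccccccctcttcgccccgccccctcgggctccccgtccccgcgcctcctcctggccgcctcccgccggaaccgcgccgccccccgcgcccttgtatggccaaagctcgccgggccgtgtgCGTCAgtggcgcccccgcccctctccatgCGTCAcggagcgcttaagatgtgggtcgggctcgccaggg

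The falls described next were named for having the highest mean CPM among the called falls. Prkcb, protein kinase C beta, had 616, 680.3 and 618 CPM in CIE+IgG and 305, 266 and 455 CPM with the antibody (log2 fold change -0.90, SE 0.18, adjusted p = 0.0394). Rapgef4, a cyclic AMP sensor also called Epac2, had 542, 625 and 628 CPM against 314, 279 and 407 CPM. The groups of both were apart, with antibody replicate 3 nearest to CIE+IgG. Calm2, a calmodulin gene, fell from 1162, 1183 and 1058 to 771, 707 and 836 CPM, and the proteolipid family member Gpm6a, a neuronal membrane glycoprotein, fell from 1256, 1258 and 1045 to 686, 670.3 and 762 CPM. Gpm6b, its relative, fell by 0.51, and Psd3, Dmxl2 and Hivep2 fell by 0.82, 0.47 and 0.91 on the log2 scale.

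The rises with the highest mean CPM among the called rises follow. Adarb1, the RNA-editing enzyme ADAR2 that recodes Gria2 messenger RNA, had 220.3, 258 and 223 CPM in Air+IgG, 227, 247 and 252 CPM in CIE+IgG and 439, 599 and 454 CPM with the antibody (log2 fold change 1.04, SE 0.13, adjusted p = 0.0177). The spread in CIE+IgG was small against the difference. Spock2, a secreted proteoglycan, rose from 647, 602 and 698 to 909.8, 983 and 870.2 CPM, and Ldhb, a lactate dehydrogenase subunit, rose from 227, 240.3 and 254 to 363, 316 and 309 CPM. Cit, the citron kinase gene, had 63.9, 89.8 and 153 CPM against 250.2, 626 and 402 CPM with wide spread in both groups. Msi2, an RNA-binding protein, and Kndc1 rose by 0.53 and 0.64 on the log2 scale.

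Among the largest falls was Ccn3, a secreted matrix protein, which fell from 54.1, 78.9 and 64.5 to 4.17, 2.74 and 10.9 CPM (log2 fold change -3.49, SE 0.53). Slc9a2 and Slc9a4, both sodium-proton exchangers, had 31.3, 25.3 and 20.6 CPM against 2.92, 1.57 and 9.07 CPM and 21.3, 12.8 and 14.4 CPM against 0.139, 0.313 and 3.16 CPM. In both, antibody replicate 3 was the highest of its group, and the log2 fold change of Slc9a4 of -3.73 became -5.96 without it. Frzb, a secreted Wnt antagonist, fell from 25.6, 15.6 and 16.8 to 2.64, 3.21 and 6.75 CPM. Alox12b, a lipoxygenase, fell from 6.87, 8.78 and 4.01 to 0.973, 0.313 and 1.16 CPM. Other large rises were those of Adamts19, a secreted protease, with 0.215, 0.585 and 0.466 CPM against 5.70, 8.14 and 7.49 CPM, Tnnt1, a troponin, with 0.644, 0.351 and 1.03 CPM against 7.51, 19.1 and 6.54 CPM, and Wnt9b with 0.107, 0.585 and 0.559 CPM against 1.81, 9.39 and 5.06 CPM.

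In the circadian list 2 members rose, and both are nuclear receptors with known expression in thalamic neurons. Rora had 97.0, 118 and 135 CPM against 327, 593 and 356 CPM and Rorb had 52.5, 61.4 and 70.9 CPM against 129.6, 158 and 119 CPM (adjusted p = 0.022 and 0.0177). None of the other 17 clock genes passed.

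Genes of general cell function held few calls. Of 76 ribosomal protein genes 0 passed and 62 were below 0, with a median of -0.12 that was -0.18 without CIE+IL17 Ab replicate 1, and 17 had an unadjusted p under 0.05, where 22.3% of all genes had. DESeq2 called 2 of them. Rpl30 had the smallest p of them, with 99.2, 83.0 and 106 CPM against 80.3, 71.2 and 73.5 CPM (adjusted p = 0.0918). Of 80 respiratory chain subunits 0 passed, 5 had an unadjusted p under 0.05, and DESeq2 called 2. Cholesterol synthesis held 1 rise among 23 genes, Stard4, which carries sterol between membranes, from 17.1, 16.5 and 16.4 to 30.4, 37.6 and 25.1 CPM. Of that list 21 were above 0, with a median of 0.19, between 0.11 and 0.30 with any 1 library left out. None of 25 genes of fatty acid synthesis, 13 of ethanol, aldehyde and acetate metabolism, 32 of the oxidative stress response, 25 of heat shock and the unfolded protein response, 15 of glucocorticoid response or 18 histone deacetylases and sirtuins passed. In that order 8, 3, 3, 8, 5 and 3 had an unadjusted p under 0.05, and DESeq2 called 2, 1, 0, 7, 2 and 1, while limma-voom called 0 in each. Aldh9a1, an aldehyde dehydrogenase, had 21.3, 22.4 and 28.1 CPM against 29.9, 36.8 and 34.8 CPM, without overlap (adjusted p = 0.0884). Nr3c2, the mineralocorticoid receptor of hippocampal neurons, had 330.4, 320.2 and 222 CPM against 85.9, 91.5 and 187 CPM, a log2 fold change of -1.26 with an SE of 0.35 (adjusted p = 0.0838). Hdac5, a class II deacetylase, had 123, 133 and 115 CPM against 152, 150.0 and 149 CPM (adjusted p = 0.0761). Among 19 genes of neurogenesis and proliferation 1 fell, the cyclin Ccnd1, from 46.1, 35.0 and 39.9 to 29.2, 25.0 and 28.9 CPM, and 0 of 23 clustered protocadherins passed. Acsl5, Gss, Hspa1b, Cox6a1 and Pcdhgc4 had the smallest p of their lists, with adjusted p of 0.0567, 0.109, 0.0649, 0.0806 and 0.233.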

How the data were processed

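Polyadenylated RNA from the hippocampus was sequenced from stranded libraries. Per the submitters' processing notes, STAR 2.5.1a and RSEM 1.3.0 were used with GRCm38. The authors deposited expected counts per gene, of which 27.1% had decimals, and no filter is stated, although every gene's third-largest count was at least 6. Here they were rounded to whole numbers, named by symbol for 14628 of 14779 genes, filtered (filterByExpr, minimum count 10), scaled with TMM and tested with edgeR 4.0.16 (R 4.3.3; quasi-likelihood, robust, two-sided, Benjamini-Hochberg over all genes) on all 9 libraries, with 6 residual degrees of freedom. Levels are TMM-scaled CPM computed here. All columns were mapped to samples by title or description. Libraries of a group differed by at least 4.057 in chi-square per degree of freedom, so none was counted as a duplicate. P-values set the difference between the groups against the spread between libraries, estimated from all 9 libraries together. The members and lists were chosen with earlier results of these data known. Named are the 12 called rises and falls with the highest mean CPM, the 10 with the largest fold change at 5 CPM or more, per list up to 4 called members or the 1 with the smallest p, and 10 genes set by name, 128 in all, some of which are not reported here. The 53 lists held 1203 genes, of which 1155 were tested. Alternatives were DESeq2 1.42.0, limma-voom 3.58.1, other scaling and filters, blocks and left-out libraries. The scripts were tested on simulated data.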

Additional observations from a re-analysis of the deposited data

How the results depend on the processing

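Against 466 genes in the analysis as reported, DESeq2 called 1477 (654 higher, 823 lower), a fit with only the antibody and CIE+IgG libraries called 1, the libraries with label numbers 54 to 60 alone called 1, and a block for the set of label numbers called 778. With the replicate number as a block, 14 genes passed, all higher with the antibody. The numbers were not taken to pair the mice, because deviations of same-numbered CIE+IgG and CIE+IL17 Ab libraries correlated at -0.108, -0.271 and -0.055. Leaving out 1 library gave between 0 and 1313 genes. DESeq2 size factors (463), limma-voom (590), no filter (462), a stricter filter (486) and leaving out both Lars2-rich libraries (377) stayed within 1.5 times. The log2 fold changes of 4 uncalled genes turned sign with a library left out. That of Il17ra ran from -0.117 to 0.057, that of Il17rc from -0.072 to 0.249, that of Traf3ip2 from -0.065 to 0.228 and that of Lars2 from -0.568 to 9.333. Leaving out both Lars2-rich libraries gave 0.046 for Il17ra and -0.57 for Lars2. The cause was not tested. The depth of 7372658 to 11894628 counts per library leaves genes with few counts imprecise, such as Pou4f1 and Ntn5.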

Other observations

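The genes in this section were chosen after their values were seen. Shox2, a homeobox gene of thalamic and other subcortical neurons, was at 0 CPM in the 3 Air+IgG libraries and in CIE+IgG replicates 1 and 2. CIE+IgG replicate 3 had 8.11 CPM, and the antibody libraries had 47.4, 48.0 and 26.3 CPM. The gene did not pass in edgeR's test (adjusted p = 0.123). Bnc2, a zinc finger gene, had 64.1 CPM in CIE+IL17 Ab replicate 1 and at most 4.93 CPM in the other 8 libraries. The gene 2210418O10Rik was at 0 CPM in all 3 antibody libraries and in CIE+IgG replicate 3, while the other CIE+IgG libraries had 7.20 and 35.7 CPM and all Air+IgG libraries were above 0. It did not pass either (adjusted p = 0.134).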
